A study of Mus musculus with 12 samples.

Results

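Levels of the dimerising leucine-zipper and interferon regulatory factor genes Batf, Batf3, Irf4, Irf8, Jun, Junb, Jund, Fos, Fosl1 and Fosl2 were described in mouse T cells that did or did not express Foxp3 after culture. A gene was taken where a transcript cluster of the array carried its symbol alone, and where a gene had several such clusters the brightest over all arrays stood for it. This rule found 9 of the 10 genes among 22180 genes measured. The symbol of Fosl1 stood only on a cluster shared with Ccdc85b, so Fosl1 is given apart.

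AP-1 is a pair of leucine-zipper proteins, a JUN protein (Jun, Junb or Jund) joined to a FOS protein (Fos, Fosl1 or Fosl2) or to another JUN, and it binds the sequence TGAGTCA and its relatives. BATF and BATF3 lack the activation domain of FOS proteins, pair with JUN proteins, and bind composite DNA elements together with IRF4 or IRF8. In T cells the BATF, JUN and IRF4 complex is known from effector and helper differentiation and from regulatory T cells in tissues, and JUN and FOS are induced within minutes to hours of receptor signalling through MAP kinases.

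The 12 arrays came from T cells of C57BL6 mice whose Foxp3 gene is reported by green fluorescent protein (GFP). In every group 200000 resting T cells per well were stimulated by 20000 CD11c dendritic cells of the BALB/c strain. CD8 control and CD4 control cells received IL-2 at 5 ng/mL and were sorted as GFP-negative. CD8 Foxp3-positive and CD4 Foxp3-positive cells were the GFP-positive cells of wells with the same IL-2 plus TGF-β (5 ng/mL) and 40 nM of retinoic acid. Culture lasted 4 days for CD8 and 5 days for CD4 cells, so lineage and day cannot be told apart, and neither can the added TGF-β and retinoic acid and the Foxp3 sort. Each group had 3 arrays, replicates A, B and C, of cells pooled before staining. The labels do not say that replicates came from separate cultures or animals, so p-values cover the spread of these samples alone, and that spread may be technical.

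Values are log2 expression levels, given per array in the order A, B, C or as a group's mean with the SD of its 3 arrays. Differences are in log2 units with the standard error of a limma model over all 12 arrays, and adjusted p is Benjamini-Hochberg over all 22180 genes with a threshold of 0.05. Foxp3 averaged 5.66 ± 0.59 in controls and 12.48 ± 0.05 in Foxp3-positive cells of the CD8 lineage, and 5.76 ± 0.29 and 12.44 ± 0.05 in those of the CD4 lineage. Cd4, Cd8a and Cd8b1 followed the labelled lineages, and all 7 measured genes of a 10-gene T cell list lay above 5.60, the median level of all genes, in every group. Cd8a averaged 11.79 and 12.54 in CD8 control and Foxp3-positive cells, beside 6.51 and 7.54 in CD4 cells. Cd8b1 averaged 11.86 and 11.97, beside 7.72 and 6.17, so both lay above 5.60 in CD4 cells too. Cd4 averaged 5.36 and 5.17 in CD8 cells, beside 12.31 and 11.92 in CD4 cells. Array medians lay between 5.23 and 5.33. Correlations between arrays ranged from 0.992 to 0.994 within groups and from 0.962 to 0.991 between groups, and no array stood apart.

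The 250 bases before the transcription start are shown for Jun, Fosl2 and Batf, which had the largest fold changes here, and for Irf8, which carried most motif matches. They are RefSeq sequences of build GRCm38.p6, read 5′ to 3′ on the strand of the gene, and 9 of the 10 genes had an entry. Capitals mark matches to the motifs searched on both strands, which were TGAGTCA (the AP-1 element TRE), TGACGTCA (the cyclic AMP element CRE), TGACATCA (the relative known from the Jun gene), TTCNNNGAA (the STAT element GAS), GAAA followed after any 2 bases by GAAA (an interferon-type repeat that IRF proteins bind) and the CArG box of serum response factor. Of 32851 promoter windows of the same length, 4.46% held TGAGTCA, 1.55% TGACGTCA, 2.93% TGACATCA, 7.02% TTCNNNGAA, 2.98% the GAAA repeat and 1.47% a CArG box.
Jun, chr4:95052223-95052472, minus strand: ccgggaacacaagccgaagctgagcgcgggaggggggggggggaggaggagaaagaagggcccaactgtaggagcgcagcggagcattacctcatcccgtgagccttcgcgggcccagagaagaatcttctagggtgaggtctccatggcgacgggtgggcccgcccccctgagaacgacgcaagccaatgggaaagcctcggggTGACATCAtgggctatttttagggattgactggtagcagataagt
Fosl2, chr5:32136222-32136471, plus strand: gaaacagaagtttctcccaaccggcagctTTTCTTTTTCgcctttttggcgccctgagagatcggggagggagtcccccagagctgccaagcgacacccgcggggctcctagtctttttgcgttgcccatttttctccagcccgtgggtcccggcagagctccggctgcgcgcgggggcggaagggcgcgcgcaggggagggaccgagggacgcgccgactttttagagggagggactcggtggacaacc
Batf, chr12:85686470-85686719, plus strand: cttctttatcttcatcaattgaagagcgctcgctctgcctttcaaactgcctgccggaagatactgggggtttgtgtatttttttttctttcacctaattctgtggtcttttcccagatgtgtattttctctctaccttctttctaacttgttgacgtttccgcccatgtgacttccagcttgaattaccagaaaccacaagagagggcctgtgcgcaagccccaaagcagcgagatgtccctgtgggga
Irf8, chr8:120736108-120736357, plus strand: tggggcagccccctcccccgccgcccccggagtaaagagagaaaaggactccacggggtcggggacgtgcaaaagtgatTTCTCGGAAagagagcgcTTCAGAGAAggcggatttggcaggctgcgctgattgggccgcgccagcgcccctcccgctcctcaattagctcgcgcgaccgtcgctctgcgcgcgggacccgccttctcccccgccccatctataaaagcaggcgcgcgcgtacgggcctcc

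The Jun window held TGACATCA from 45 to 38 bases before the start. The Irf8 window held the STAT element as TTCTCGGAA from 171 to 163 and as TTCAGAGAA from 153 to 145 bases before the start. In Fosl2 the GAAA repeat lay on the opposite strand, from 221 to 212 bases before the start, and reads TTTCTTTTTC on the strand shown. Batf3 (not shown) held TTCCACGAA from 239 to 231. No searched motif lay in the windows of Batf, Irf4, Junb, Jund and Fos or at a later start of Irf8, which says only that these letters are not in those 250 bases. A match is a description of the sequence, and binding was not measured.

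In Foxp3-positive cells of both lineages Jun, Fos and Irf8 were higher, and Batf, Batf3 and Fosl2 were lower, than in the controls that received IL-2 alone. Junb fell in CD4 cells, and Irf4 and Jund passed the test in neither lineage. In CD8 cells 6 of the 9 genes passed (3 higher and 3 lower), where 20% of all genes did, 9.39% higher and 10.6% lower. In CD4 cells 7 of 9 passed (3 higher and 4 lower), where 22.5% of all genes did, 12.1% higher and 10.4% lower. The arrays of the groups did not overlap for 7 of 9 genes in CD8 cells (33.5% of all genes) and for 8 of 9 in CD4 cells (37.8% of all genes). The median absolute difference over the 9 genes was 0.90 in CD8 and 0.97 in CD4 cells, beside 0.15 and 0.17 over all genes. Counts in both directions left the median signed difference near 0, at -0.18 in CD8 and -0.16 in CD4 cells, beside -0.02 and 0.00 over all genes. As the arrays measured bulk RNA, fewer cells of a type and less RNA per cell cannot be told apart.

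**Figure D1:**
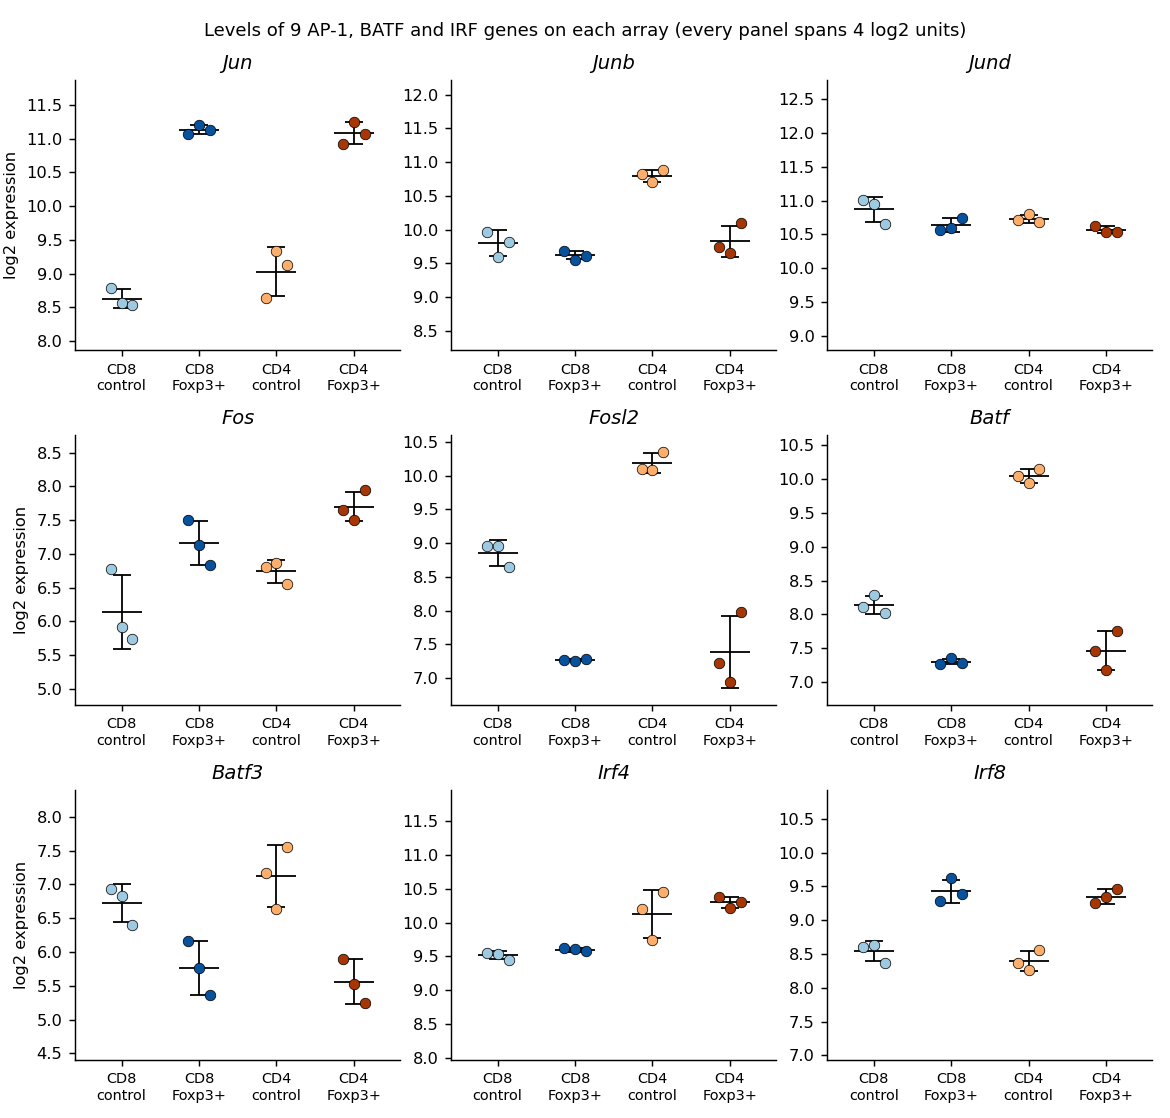
Each panel plots the log2 expression of a gene on the 12 arrays, by group, with the mean and SD of the 3 arrays as lines, and every panel spans 4 log2 units around its own centre, so levels should be compared within a panel. Jun, Fos and Irf8 lie higher and Batf, Batf3 and Fosl2 lower in the Foxp3-positive (Foxp3+) groups, Junb and Batf peak in CD4 controls, and Jund hardly moves.

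Among the JUN genes, which encode the partners that FOS and BATF proteins need, only Jun rose. Jun measured 8.79, 8.57 and 8.53 on the CD8 control arrays and 11.07, 11.20 and 11.12 on the CD8 Foxp3-positive arrays. CD4 arrays gave 8.64, 9.34 and 9.12 in controls and 10.92, 11.25 and 11.06 in Foxp3-positive cells. All 6 Foxp3-positive arrays thus lay above all 6 control arrays, with a gap of more than 1 log2 unit, and both lineages ended near the same level. The rise was 2.50 ± 0.15 (5.66-fold, adjusted p = 1.54e-07) in CD8 cells and 2.05 ± 0.15 (4.13-fold, adjusted p = 6.77e-07) in CD4 cells. By absolute difference Jun ranked 114 of 22180 genes in CD8 and 290 in CD4 cells. The excess of the CD8 over the CD4 rise, 0.45 ± 0.22 with a 95% interval from -0.02 to 0.93, did not pass (adjusted p = 0.211), and without CD4 control replicate A, the lowest of its group, it was 0.65 and passed (adjusted p = 0.0273).

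Junb, the JUN protein known as the partner of BATF in helper T cells, stood out in CD4 controls. Its levels were 10.82, 10.70 and 10.88 in CD4 control cells, above the 9.74, 9.66 and 10.10 of CD4 Foxp3-positive cells. CD8 cells measured 9.97, 9.60 and 9.82 in controls and 9.68, 9.55 and 9.61 in Foxp3-positive cells, where the groups overlapped. Junb fell by 0.97 on the log2 scale in CD4 cells (SE 0.12, 1.95-fold, adjusted p = 8.02e-05). The CD8 difference was -0.18 ± 0.12 with an interval from -0.45 to 0.09 (adjusted p = 0.389). The gap between these differences, 0.78 ± 0.18, passed on its own (adjusted p = 0.0107).

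Jund, the JUN gene known to be expressed in resting cells, varied least of the 9 genes, with group means between 10.57 and 10.87. CD8 arrays ranged from 10.65 to 11.01 in controls and from 10.56 to 10.75 in Foxp3-positive cells, and CD4 arrays from 10.69 to 10.80 and from 10.54 to 10.63. The differences were -0.23 ± 0.10 in CD8 (interval from -0.45 to -0.01, adjusted p = 0.152) and -0.16 ± 0.10 in CD4 cells (interval from -0.38 to 0.06, adjusted p = 0.316). Without CD8 control replicate C the CD8 difference was -0.34 and passed (adjusted p = 0.0199). A dimmer cluster of Jund, at 7.95 to 8.32 in the group means, passed in neither lineage (adjusted p = 0.847 in CD8 and 0.163 in CD4 cells, over all 34365 clusters).

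The FOS genes moved in opposite directions. Fos, a partner induced early by receptor signals, measured 6.77, 5.92 and 5.74 in CD8 control and 7.50, 7.13 and 6.84 in CD8 Foxp3-positive cells. CD4 arrays gave 6.80, 6.87 and 6.55 in controls and 7.65, 7.50 and 7.94 in Foxp3-positive cells. Groups did not overlap within either lineage, although the highest CD8 control array, replicate A, lay just below the lowest Foxp3-positive array. The rise was 1.01 ± 0.24 (2.02-fold, adjusted p = 0.00797) in CD8 and 0.96 ± 0.24 (1.94-fold, adjusted p = 0.0102) in CD4 cells, and the difference between them was 0.05 ± 0.34 (interval from -0.67 to 0.78, adjusted p = 0.947).

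Fosl2, which encodes FRA-2, had the widest span of group means among the 9 genes, 2.91. It measured 8.95, 8.96 and 8.64 in CD8 control and 7.27, 7.25 and 7.28 in CD8 Foxp3-positive cells. In CD4 cells the values were 10.10, 10.08 and 10.35 in controls and 7.23, 6.95 and 7.98 in Foxp3-positive cells. Foxp3-positive cells of both lineages lay near 7.3, and CD4 controls lay above CD8 controls, with replicate C of the CD4 Foxp3-positive group higher than its companions. The fall was -1.58 ± 0.20 (2.99-fold, adjusted p = 9.69e-05) in CD8 and -2.79 ± 0.20 (6.91-fold, adjusted p = 4.94e-07) in CD4 cells, and the gap of 1.21 ± 0.29 passed (adjusted p = 0.0143). By absolute difference Fosl2 ranked 346 in CD8 and 117 in CD4 cells.

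The cluster that Fosl1 (FRA-1) shares with Ccdc85b averaged 6.50 ± 0.62 in controls and 5.88 ± 0.30 in Foxp3-positive cells of the CD8 lineage, and 6.28 ± 0.25 and 6.09 ± 0.03 in those of the CD4 lineage. It passed in neither lineage in a fit of all 34365 clusters (adjusted p = 0.147 in CD8 and 0.697 in CD4 cells), and its signal cannot be assigned to either gene.

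Batf, the BATF protein of effector and helper T cells, fell in both lineages and much further in CD4 cells. It measured 8.11, 8.28 and 8.02 in CD8 control and 7.27, 7.35 and 7.28 in CD8 Foxp3-positive cells. CD4 controls measured 10.05, 9.95 and 10.15, and CD4 Foxp3-positive cells 7.46, 7.17 and 7.75. CD4 controls stood above all other arrays, and the Foxp3-positive groups overlapped each other. The differences were -0.84 ± 0.13 (1.79-fold, adjusted p = 0.00044) in CD8 and -2.59 ± 0.13 (6.01-fold, adjusted p = 1.86e-08) in CD4 cells. Their gap, 1.75 ± 0.18, passed (adjusted p = 5.8e-05) and ranked 221 of 22180 genes by size.

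Batf3, known best as a factor of cross-presenting dendritic cells and also present in T cells, lay low on these arrays, with group means from 5.56 to 7.12 beside the all-gene median of 5.60. CD8 arrays gave 6.93, 6.83 and 6.40 in controls and 6.16, 5.76 and 5.36 in Foxp3-positive cells. CD4 arrays gave 7.17, 6.64 and 7.55 in controls and 5.90, 5.52 and 5.25 in Foxp3-positive cells. Controls lay above Foxp3-positive arrays in both lineages, with a wide spread inside groups. Batf3 fell in CD8 (-0.96 ± 0.25, 1.94-fold, adjusted p = 0.016) and in CD4 cells (-1.56 ± 0.25, 2.96-fold, adjusted p = 0.000523). Without CD8 control replicate A (-0.86, adjusted p = 0.0678) or B (-0.90, adjusted p = 0.0572), or without CD8 Foxp3-positive replicate C (-0.76, adjusted p = 0.0781), the CD8 difference no longer passed. The gap between lineages was 0.61 ± 0.36 (adjusted p = 0.321).

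**Figure D2:**
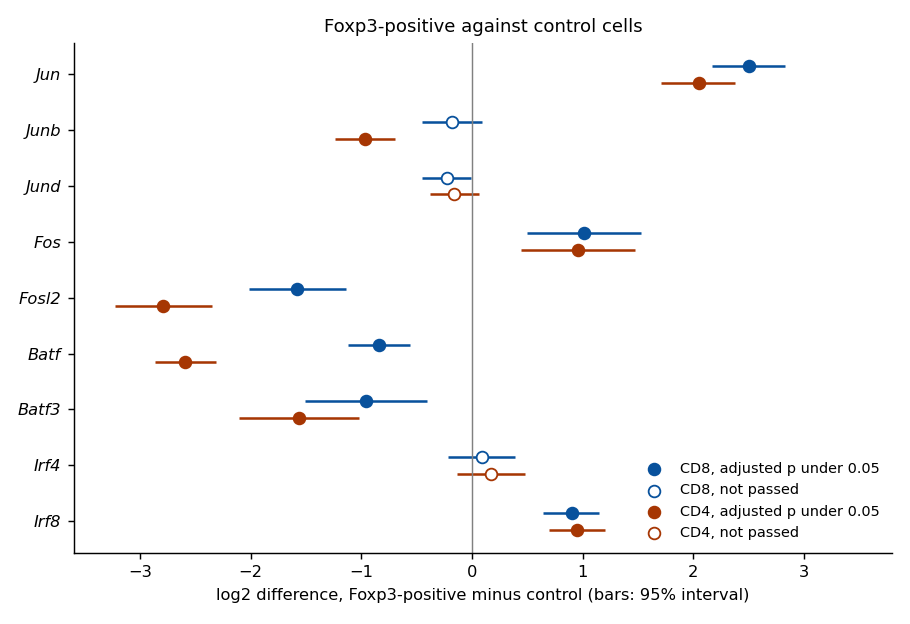
For each gene the plot gives the log2 difference between Foxp3-positive and control cells in CD8 (blue) and CD4 (brown) cells, with 95% intervals as bars and filled points where the adjusted p was under 0.05. Jun, Fos and Irf8 lie right of 0 in both lineages, and Batf, Junb and Fosl2 reach further left in CD4 than in CD8 cells.

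Irf4 and Irf8, the IRF partners of BATF, behaved differently from each other. Irf4, induced by T cell receptor signalling, measured 9.55, 9.54 and 9.45 in CD8 control and 9.63, 9.61 and 9.58 in CD8 Foxp3-positive cells. CD4 arrays gave 10.20, 9.74 and 10.45 in controls and 10.38, 10.22 and 10.30 in Foxp3-positive cells. CD4 arrays lay above CD8 arrays, whereas within a lineage the Foxp3-positive and control means lay close. The difference was 0.09 ± 0.14 in CD8 (interval from -0.22 to 0.39, adjusted p = 0.755) and 0.17 ± 0.14 in CD4 cells (interval from -0.14 to 0.48, adjusted p = 0.453).

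Irf8, a factor of myeloid cells and B cells that activated T cells also express, measured 8.61, 8.64 and 8.37 in CD8 control and 9.29, 9.62 and 9.39 in CD8 Foxp3-positive cells. CD4 arrays gave 8.36, 8.27 and 8.56 in controls and 9.25, 9.34 and 9.46 in Foxp3-positive cells. Every Foxp3-positive array lay above every control array, and the lineages overlapped in each condition. The rise was 0.90 ± 0.12 (1.86-fold, adjusted p = 0.000116) in CD8 and 0.95 ± 0.12 (1.93-fold, adjusted p = 5.45e-05) in CD4 cells, and the gap between lineages was -0.05 ± 0.17 (interval from -0.41 to 0.31, adjusted p = 0.888). A dimmer Irf8 cluster averaged 5.98 ± 0.27 in controls and 6.53 ± 0.12 in Foxp3-positive cells of the CD8 lineage, and 6.05 ± 0.08 and 6.34 ± 0.04 in those of the CD4 lineage. There the CD8 rise passed (0.55 ± 0.13, adjusted p = 0.00992, over all 34365 clusters) and the CD4 difference did not (0.28 ± 0.13, adjusted p = 0.158).

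Because Irf8 and Batf3 are also expressed by other cell types, marker lists were read beside them. Of 19 dendritic cell genes 17 were measured, and their summed signal (log2 of the sum of unlogged values) ranged over CD8 arrays from 11.19 to 11.58 in controls and 11.71 to 11.94 in Foxp3-positive cells, and over CD4 arrays from 11.49 to 11.74 and 11.38 to 11.90. Of these 17 genes 9 lay above 5.60 in CD8 control means and 8 in each of the other groups. Among them were Ccr7 (8.97 to 10.48), Cd209a (9.23 to 9.47), H2-Ab1 (8.95 to 10.00), Naaa (6.64 to 7.65) and H2-Eb1 (6.29 to 6.40). Xcr1, which marks cross-presenting dendritic cells, averaged 4.77 to 5.08 in the groups, Flt3 4.79 to 4.97 and H2-Aa 4.97 to 5.45, all below 5.60. Itgax (CD11c) fell by 1.76 in CD8 cells (adjusted p = 1.02e-06), and H2-Ab1 fell by 1.05 in CD4 cells (adjusted p = 0.0368). The H2-Ab1 call was lost without CD4 control replicate B or C or CD4 Foxp3-positive replicate A or B. It was also lost in a limma fit of only the arrays compared (adjusted p = 0.0815) and with trend and robust settings (adjusted p = 0.0737). Ccr7 rose by 1.52 in CD8 and by 1.06 in CD4 cells, and the other genes of that list passed in neither lineage. In CD8 controls and Foxp3-positive cells Ccr7 averaged 8.97 and 10.48, beside 9.49 and 9.45 for H2-Ab1 and 9.40 and 9.47 for Cd209a. Ccr7 was the brightest measured gene of the list in both Foxp3-positive groups, so it weighed most in the sums there. A sum without Ccr7 was not taken. Of 9 B cell genes 8 were measured, with a summed signal of 12.00 to 12.26, 13.18 to 13.31, 11.06 to 11.20 and 12.76 to 12.94 in the same order of groups. That sum was higher in Foxp3-positive cells. The brightest gene of the list, Ighm, rose by 1.16 in CD8 and 1.82 in CD4 cells, and Cd79b rose by 1.10 and 0.77. Averaged over its clusters, Ighm rose by 0.69 and 0.35. Cd79a passed in CD8 cells (0.36, adjusted p = 0.0492), a call lost under most alternatives, whereas Cd22 fell by 0.60 (adjusted p = 0.0081) and Ebf1 fell by 0.64 (adjusted p = 0.0174) in CD4 cells. The Ebf1 call was lost without CD4 control replicate A or C or CD4 Foxp3-positive replicate A or C. Ighm and Cd79b lay above 5.60 in every group mean, and the other 6 genes, Ms4a1 (3.57 to 3.82) and Pax5 (4.99 to 5.12) among them, lay below it. Of 9 macrophage genes 8 were measured, with sums of 9.0 to 9.45, 9.03 to 9.58, 9.13 to 9.24 and 8.62 to 8.89. Among these Lyz2 rose by 1.82 and 1.06 and Itgam by 1.19 and 1.38, whereas Cd68 fell by 0.63 and by 1.19. The Lyz2 rise in CD4 cells did not pass without CD4 control replicate A or CD4 Foxp3-positive replicate A. NK and γδ T cell genes, 4 of 6 measured, gave sums of 8.85 to 9.46, 6.93 to 7.29, 8.38 to 8.81 and 6.74 to 7.33. The γδ T cell genes Tcrg-C1 and Trdc were not measured, so these sums do not cover γδ T cells. Eomes fell by 3.19 in CD8 cells and fell by 2.37 in CD4 cells, and it alone lay above 5.60 in the group means. Ncr1, Klrb1c and Tyrobp had group means from 3.57 to 5.37 and passed in neither lineage. The part of other cells in the Irf8 and Batf3 differences was not tested.

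Batf, Fosl2 and Junb differed more between the lineages in controls than in Foxp3-positive cells. In controls 4 of 9 genes passed, all lower in CD8 cells, where 20.9% of all genes passed and 8.76% were lower, and 4 of 9 did not overlap (33.7% of all genes). They were Batf at -1.91 ± 0.13 (3.76-fold, adjusted p = 5.32e-07), Fosl2 at -1.33 ± 0.20 (2.51-fold, adjusted p = 0.000428), Junb at -1.0 ± 0.12 (2.0-fold, adjusted p = 8.86e-05) and Irf4 at -0.61 ± 0.14 (1.53-fold, adjusted p = 0.00703). In Foxp3-positive cells 1 of 9 passed, Irf4 at -0.69 ± 0.14 (1.62-fold lower in CD8 cells, adjusted p = 0.0121), where 4.71% of all genes passed and 2.3% were lower. Arrays of the lineages did not overlap there for 2 of 9 genes, Irf4 and Fos, beside 22.7% of all genes. For Fos this was a bare separation, as the nearest arrays of the lineages both rounded to 7.50. The Irf4 call was lost without CD4 Foxp3-positive replicate A (-0.65, adjusted p = 0.0537). Comparisons between lineages share their arrays with those within lineages.

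The gap of CD8 and CD4 means went from 1.91 in controls to 0.16 in Foxp3-positive cells for Batf, from 1.33 to 0.12 for Fosl2 and from 1.00 to 0.22 for Junb. Irf4 went from 0.61 to 0.69. The change in this gap is the same quantity as the excess of the CD8 over the CD4 difference, which passed for 3 of 9 genes, Batf, Fosl2 and Junb, each in the positive direction, where 13.5% of all genes passed and 6.01% were positive. Its median size was 0.45 over the 9 genes and 0.21 over all genes. For Irf4 it was -0.08 ± 0.20 (interval from -0.51 to 0.35, adjusted p = 0.856). In controls Jun (-0.40 ± 0.15, adjusted p = 0.0917) and Fos (-0.60 ± 0.24, adjusted p = 0.102) did not pass. The Jun difference passed without CD4 control replicate A (-0.59, adjusted p = 0.00603) and with a filter on low values (adjusted p = 0.046), and the Fos difference passed without CD8 control replicate A (-0.91, adjusted p = 0.00552). In Foxp3-positive cells Fos was lower in CD8 cells by 0.54 on the log2 scale (interval of the difference from -1.06 to -0.03), without passing (adjusted p = 0.272).

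**Figure D3:**
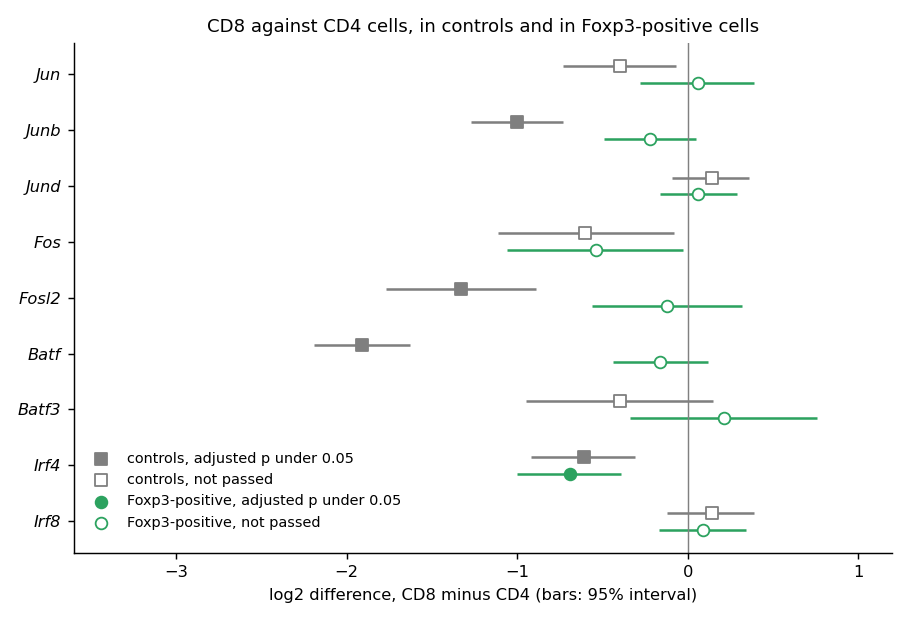
The plot gives the log2 difference between CD8 and CD4 cells for each gene in controls (grey squares) and in Foxp3-positive cells (green circles), with 95% intervals as bars and filled symbols where the adjusted p was under 0.05. Batf, Fosl2 and Junb lie far left of 0 in controls and near 0 in Foxp3-positive cells, and Irf4 lies left of 0 in both.

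Ordered by level, Batf and Fosl2 shared a sequence of groups. Both were lowest in the Foxp3-positive groups, which overlapped each other, then CD8 control, then CD4 control, with no overlap at the upper 2 steps. For Jun the controls overlapped each other below the Foxp3-positive groups, which also overlapped, with a step of 2.05 between the CD4 groups. Irf8 had the same arrangement, with a step of 0.81 between CD8 control and CD4 Foxp3-positive cells. Junb had 3 overlapping groups below CD4 control. Neighbouring groups of Jund overlapped at every step. Fos ran from CD8 control through CD4 control and CD8 Foxp3-positive to CD4 Foxp3-positive cells. Only the top step of 0.54 had no overlap, and there the nearest arrays both rounded to 7.50.

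Other leucine-zipper genes, 22 of 23 listed and measured, mostly fell in CD4 cells. There 2 rose and 13 fell (12.1% and 10.4% of all genes), with a median difference of -0.43 beside 0.00 for all genes. In CD8 cells 4 rose and 5 fell (9.39% and 10.6% of all genes), with a median of -0.16 beside -0.02. Without CD8 control replicate B 2 of them rose in CD8 cells. Maf, a large zipper factor of Il10 and Il4 expression, went from 5.41 to 8.94 in CD8 cells (3.53 ± 0.15, adjusted p = 8.36e-09) and from 10.31 to 9.65 in CD4 cells (-0.65 ± 0.15, adjusted p = 0.0071). Nfil3 (E4BP4) fell by 2.05 in CD4 cells (adjusted p = 2.4e-06), beside -0.48 ± 0.18 in CD8 cells (adjusted p = 0.0824). Jdp2, a repressor that pairs with JUN, fell by 1.26 in CD8 and fell by 1.95 in CD4 cells. Atf2, a partner of JUN at CRE-like sites, differed by 0.01 ± 0.08 and 0.11 ± 0.08 and passed in neither. Between lineages the differences of 8 of the 22 genes passed (13.5% of all genes), each more negative in CD4 cells (6.01% of all genes). The other way 0 passed with limma, 3 had an unadjusted p under 0.05, and 6 of the 20 alternatives called 1 or 2. The 8 became 5 without CD8 Foxp3-positive replicate A or CD4 control replicate C.

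Among other IRF genes and their ETS-family partners, 14 of 16 measured, 4 rose and 2 fell in CD8 cells (9.39% and 10.6% of all genes), and 3 rose and 7 fell in CD4 cells (12.1% and 10.4%). The CD4 falls were 3 without CD4 control replicate B or CD4 Foxp3-positive replicate B, and 4 without CD4 Foxp3-positive replicate A. Irf7, the factor of type I interferon genes, fell from 9.23 to 6.67 in CD4 cells (-2.57 ± 0.19, adjusted p = 6.48e-07), and the CD8 difference was -0.58 ± 0.19 (adjusted p = 0.0507, under the threshold with 10 of 20 alternatives). Irf1 rose by 0.72 in CD8 cells (adjusted p = 0.00169) and fell by 0.56 in CD4 cells (adjusted p = 0.00772). Irf2bp2, a corepressor that binds IRF2, rose in both (1.07 ± 0.09 and 0.72 ± 0.09). Spi1 (PU.1), which partners IRF4 and IRF8 in B and myeloid cells, lay between 5.52 and 5.61 in the group means and passed in neither lineage.

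Genes described as dependent on BATF or IRF4 in T cells more often rose than fell in CD8 cells, and more often fell in CD4 cells. The list gives no direction of dependence, so its counts do not measure the activity of either factor. Of 20 measured of 22, 8 rose and 2 fell in CD8 cells (9.39% and 10.6% of all genes), and 4 fell there with a filter on low values. In CD4 cells 3 rose and 10 fell (12.1% and 10.4% of all genes). The median differences were 0.22 in CD8 and -0.46 in CD4 cells, beside -0.02 and 0.00 over all genes. Il10 averaged 10.34 in controls and 5.49 in Foxp3-positive cells of the CD4 lineage (-4.86 ± 0.30, adjusted p = 1.1e-07), beside 5.92 and 6.79 in CD8 cells (0.87 ± 0.30, adjusted p = 0.0592, under the threshold with 4 of 20 alternatives). Il4 fell by 4.43 in CD4 cells (adjusted p = 5.83e-10), from 8.94 to 4.51, and rose by 0.59 in CD8 cells (adjusted p = 0.0125). Its CD8 means, 4.43 in controls and 5.02 in Foxp3-positive cells, both lay below the all-gene median of 5.60. The CD8 value did not pass without control replicate A or Foxp3-positive replicate B of that lineage. Il12rb2, the inducible chain of the IL-12 receptor, fell by 3.81 in CD8 and fell by 4.91 in CD4 cells. Rora passed in neither (-0.02 ± 0.15 and 0.25 ± 0.15). The lineage difference passed for 11 of the 20 genes (13.5% of all genes), 10 of them more negative in CD4 cells (6.01% of all genes). This list includes Maf, which the zipper list holds too.

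**Figure D4:**
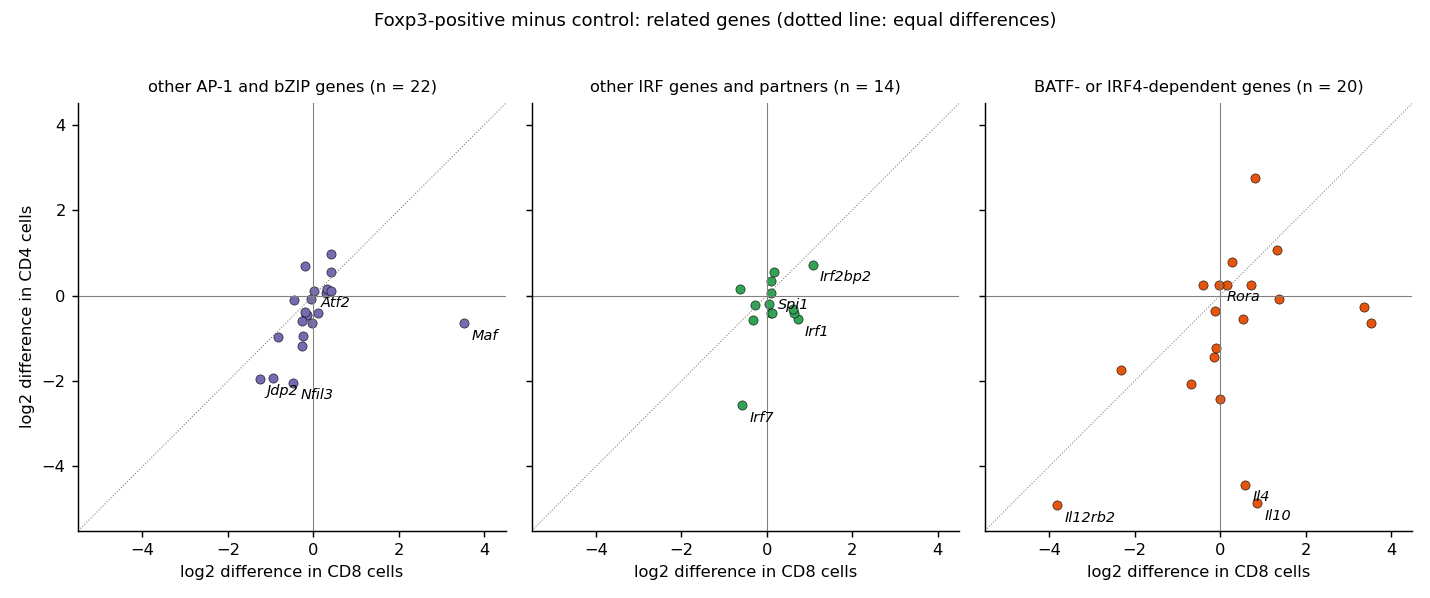
Each point is a gene, placed by its log2 difference between Foxp3-positive and control cells in CD8 (horizontal) and CD4 (vertical) cells, for 22 other AP-1 and leucine-zipper genes, 14 other IRF genes and partners, and 20 genes described as dependent on BATF or IRF4. Most points lie below the dotted line of equal differences in the left panel, with Maf far to the right, and Il4 and Il10 lie far down near the vertical axis in the right panel.

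Of the signalling genes upstream of AP-1, 21 of 27 were measured, with 3 higher and 4 lower in CD8 cells (9.39% and 10.6% of all genes) and 5 higher and 8 lower in CD4 cells (12.1% and 10.4%). Their median differences were -0.09 in CD8 and -0.12 in CD4 cells. The CD8 falls were 7 with trend and robust settings or a filter on low values, and the CD4 falls were 4 or 5 without any of CD4 control replicates A or B or any CD4 Foxp3-positive replicate, and 5 with arrays centred on their medians. Map2k6, a kinase of the p38 branch, fell by 1.19 in CD8 and fell by 2.23 in CD4 cells. Map3k1, upstream of the JNK kinases that phosphorylate JUN, fell by 0.62 and fell by 0.75. Elk4, a partner of serum response factor at Fos and Egr1, rose by 0.96 in CD4 cells (adjusted p = 0.000172), beside 0.20 ± 0.13 in CD8 cells. Nfatc3 passed in neither (-0.24 ± 0.09 and -0.09 ± 0.09).

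Other immediate early genes moved in both directions. Of 19 genes 5 rose and 4 fell in CD8 cells (9.39% and 10.6% of all genes), and 5 rose and 7 fell in CD4 cells (12.1% and 10.4%). The CD8 rises were 3 without CD8 control replicate B and 2 without CD8 Foxp3-positive replicate C. Ier3 fell by 3.50 in CD8 and fell by 4.04 in CD4 cells, and Atf3 fell by 0.94 and fell by 1.92. Nr4a3, a nuclear receptor of antigen receptor signalling, rose by 2.73 in CD4 cells (adjusted p = 3.1e-08) and by 0.56 in CD8 cells (adjusted p = 0.0144), the latter not passing without control replicate A or Foxp3-positive replicate C of that lineage. Egr2 rose by 0.89 in CD8 and 0.93 in CD4 cells, and Egr3, a factor of the same zinc finger family, by 1.65 and 0.89. Nr4a1, a relative of Nr4a3, rose by 0.63 and 1.89. Its CD8 rise did not pass without control replicate B or Foxp3-positive replicate C of that lineage, or in a limma fit of only the arrays compared (adjusted p = 0.0783). Egr1 fell by 1.33 in CD8 cells and fell by 0.88 in CD4 cells, and Dusp5, a phosphatase of ERK kinases, fell by 1.26 and fell by 0.91. Dusp2 passed in neither (-0.29 ± 0.10 and 0.26 ± 0.10), but 5 of 20 alternatives called it in CD8 and 4 of 20 in CD4 cells. The gap between its CD8 and CD4 differences passed, a call lost with 7 of 20 alternatives. Of 5 genes listed as regulators of JUN and FOS protein stability, 0 passed in CD8 cells with limma, 2 had an unadjusted p under 0.05 there, and 2 rose in CD4 cells, Det1 by 0.59 (adjusted p = 0.00638) and Trib1 by 0.54 (adjusted p = 0.0251). The Trib1 call was lost without CD4 control replicate A or B or CD4 Foxp3-positive replicate B or C, and Trib1 passed in CD8 cells without CD8 control replicate C. Itch, the ligase of JUN and JUNB, passed in neither lineage (0.24 ± 0.10 and -0.23 ± 0.10).

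Genes whose pattern over the 12 arrays was most like that of a member are given as a description, since the arrays fall into 4 groups and any gene that separates the same groups will correlate. Among 10235 candidates Jun lay closest to Skil (Pearson r = 0.989), the SMAD corepressor induced by TGF-β, which averaged 7.33 in controls and 9.85 in Foxp3-positive cells of the CD8 lineage, and 7.61 and 9.70 in those of the CD4 lineage. Batf lay closest to Ptpn13 (r = 0.996) and Epas1 (r = 0.993), the latter at 7.42, 5.46, 11.60 and 5.50 in the same order. Fosl2 lay closest to Dcun1d3 (r = 0.990), and Itgb3 (r = 0.987) was among its nearest 3. Junb lay closest to Tgfbr3 (r = 0.982), Irf8 to Apol9b (r = 0.976), Batf3 to D5Ertd605e (r = 0.969) and Fos to Retreg3 (r = 0.926). Irf4 and Jund spanned less than 1 log2 unit over the group means (0.78 and 0.30) and were not matched.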

How the data were processed

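The deposited values are log2 expression levels per transcript cluster, which the authors made from 250 ng of RNA per array by RMA in Affymetrix Expression Console (per the submitters' processing notes). RMA corrects background and equalizes the distributions of probe signals between arrays before it summarizes them per cluster, so a change in total RNA per cell would not show. Tool versions, build and annotation were not given in the sources used here.

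Of 34365 clusters 23521 had 1 symbol in the platform annotation, 1814 had several and 9030 had none listed. The brightest cluster stood for each of 1082 genes with several, which left 22180 genes. A linear model of 4 group means over 12 arrays was fitted in R 4.3.3 by limma 3.58.1 (lmFit, then eBayes without trend), with 8 residual and 4.56 prior degrees of freedom. The 5 contrasts were two-sided, at an adjusted p of 0.05. The number of arrays limits the precision.

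The members and gene lists were chosen with earlier results of these data known. From each pathway list the 3 largest changes that passed and the brightest gene that passed in neither lineage are named. Marker genes that passed, and the lists' genes at counts of 5 or fewer, were picked after their values were seen. Similar genes are the highest Pearson r among genes at or above the median level. A fit of all 34365 clusters, and the alternatives for the related and marker genes, were added after the data were seen. The model did not pair samples by replicate letter, since the labels do not state a pairing. A check correlated same-letter deviations from the group means, which ranged from -0.10 to 0.14. Between the CD8 groups the same letter gave the highest correlation for A, B and C, and between the CD4 groups for none. It did so for A and B between Foxp3-positive lineages and for A and C between control lineages. Whether the letters pair samples was not settled.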

Additional observations from a re-analysis of the deposited data

Results flagged for a closer look

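The CD8 and CD4 differences between Foxp3-positive and control cells differed for 3 of the 9 genes by the interaction term of limma. The CD8 difference exceeded the CD4 difference by 1.75 on the log2 scale for Batf (adjusted p = 5.8e-05), by 1.21 for Fosl2 (adjusted p = 0.0143) and by 0.78 for Junb (adjusted p = 0.0107). Each kept its direction and its call under the 8 alternative settings and without any of the 12 arrays in turn. The setting with only the arrays compared is the main fit for this term. Averaging a gene's clusters leaves the differences of these 3 genes as they were. Culture lasted 4 days for CD8 and 5 days for CD4 cells, so lineage and day cannot be told apart.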

How the results depend on the processing

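The 9 genes gave 900 values under 8 alternative settings and with each of the 12 arrays left out in turn. Of these 891 kept their side of the threshold, 4 lost a call and 5 gained a call. Part of this was fixed in advance, so the share overstates stability. Leaving out an array of another group cannot move a difference between 2 groups. A fit of only the arrays compared is the main fit for the interaction. Averaging a gene's clusters moves the differences of Irf8 and Jund alone. No called value changed sign, and sign changes of values that were never called were not counted. The calls lost were Batf3 in CD8 cells (3 arrays) and Irf4 between Foxp3-positive lineages (1 array), and the calls gained were Jund, Jun (3 settings) and Fos. Leaving out an array gave 0 to 1 called genes of the 9 between Foxp3-positive lineages (1 with all arrays), and 674 to 1145 of all genes (1044 with all arrays, lowest without CD8 Foxp3-positive replicate B, and 687 without CD4 Foxp3-positive replicate A). The cause was not tested. With the replicate block the counts of the 9 genes were 6, 7, 3, 1 and 4 in the order CD8, CD4, interaction, Foxp3-positive and control lineages, the same as without it, and those of all genes 4359, 4872, 2921, 989 and 4595. The replicate block changed no call of the 9 genes. Of 2391 values of 40 related and marker genes 60 lost and 49 gained a call, and the interaction of Ighm went from -0.66 to 0.34 with the mean of a gene's clusters. The cause was not tested. With 3 arrays a group and no measure of background used here, differences of low genes such as Batf3 are the least certain.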
